A study of Mus musculus with 6 samples.

Results

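The annexin family was followed in DR4 embryonic fibroblasts, mouse cells used as a feeder layer for embryonic stem cells. Its 10 listed members were Anxa1, Anxa2, Anxa3, Anxa4, Anxa5, Anxa6, Anxa7, Anxa8, Anxa10 and Anxa11, and every probe set whose platform symbol was 1 of these names was taken. A probe set is a group of short oligonucleotides that together measure a transcript on an Affymetrix array. Of the 10 genes, 9 had a probe set of their own, against 18193 genes named on the arrays in all, with 18 annexin probe sets among the 22626 of the MOE430A array and 3 among the 22511 of the MOE430B array. Anxa11 appeared only on 1 MOE430A probe set that lists 2 other genes as well, so it has no value here. The labels give the cells as fibroblasts from day 15 embryos, grown in D-MEM with 15% serum, beta-mercaptoethanol and LIF on 0.1% gelatin, and they serve as the feeder control of 3 embryonic stem cell lines, named V6.5, R1 and J1, which were not analysed here. Total RNA of 3 replicates was hybridized to both array types, which makes 6 samples of 1 cell type and 1 condition. In the notation of the labels, 12x10e6 cells went into the RNA preparation of replicate 1, with a concentration of 2.4 ug/ul, while those of replicates 2 and 3 used 3x10e6 cells each and reached 3.0 ug/ul. The labels give no genotype or strain and are silent on growth arrest, a usual step for feeder cells. They also do not describe the replicates as independent cultures, so the spread and the p-values below measure only the differences between these samples, which may be technical.

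Annexins are cytosolic proteins that bind acidic phospholipids of membranes when calcium rises. They share a core of repeated helical domains that holds the calcium sites, and differ mostly in the stretch before it, through which several of them bind S100 proteins. In fibroblasts and other adherent cells they are known for linking membranes to the actin cytoskeleton, for sealing tears in the plasma membrane and for a part in vesicle traffic, and outside the cell for binding phosphatidylserine on dying cells and for assembling plasminogen at the surface.

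The sequence before the transcription start is shown for 4 members. Anxa1, Anxa2 and Anxa5 are shown because each had a probe set with at least 29.8 times the median signal of its array, and Anxa10 because both of its probe sets lay under the median of the array. Each stretch is the 250 bases before the RefSeq start, read 5′ to 3′ on the strand of the gene in GRCm38.p6, and capitals mark the letters of 4 motifs, searched on both strands. The letters TATAAA stand for a TATA box. The letters TGANTCA stand for the core of an AP-1 site. The letters GGGCGG stand for a GC box, and the last motif was CCAAT. The windows are chr19:20390672-20390921 on the minus strand for Anxa1, chr9:69453433-69453682 on the plus strand for Anxa2, chr3:36475888-36476137 on the minus strand for Anxa5 and chr8:62123194-62123443 on the minus strand for Anxa10.
Anxa1: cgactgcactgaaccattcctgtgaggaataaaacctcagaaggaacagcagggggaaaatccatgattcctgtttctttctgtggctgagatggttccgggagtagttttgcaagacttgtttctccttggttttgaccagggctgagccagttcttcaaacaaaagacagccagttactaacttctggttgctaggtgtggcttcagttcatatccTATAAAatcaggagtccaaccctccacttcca
Anxa2: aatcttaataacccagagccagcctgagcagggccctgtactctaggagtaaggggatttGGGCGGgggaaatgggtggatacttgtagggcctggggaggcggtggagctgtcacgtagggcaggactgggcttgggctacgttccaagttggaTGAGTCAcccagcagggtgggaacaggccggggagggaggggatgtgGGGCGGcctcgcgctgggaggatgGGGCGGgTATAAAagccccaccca
Anxa5: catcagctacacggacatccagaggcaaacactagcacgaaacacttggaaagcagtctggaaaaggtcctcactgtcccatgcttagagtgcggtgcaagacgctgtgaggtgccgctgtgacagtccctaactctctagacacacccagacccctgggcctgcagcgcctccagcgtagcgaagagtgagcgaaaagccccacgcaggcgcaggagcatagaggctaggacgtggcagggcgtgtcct
Anxa10: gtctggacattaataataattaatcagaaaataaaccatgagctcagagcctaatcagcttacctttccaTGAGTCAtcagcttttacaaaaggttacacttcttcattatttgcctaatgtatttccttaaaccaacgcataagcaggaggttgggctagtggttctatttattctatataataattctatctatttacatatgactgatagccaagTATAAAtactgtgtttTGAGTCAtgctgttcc

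TATAAA stood 32 bases before the start in Anxa1, 17 bases before it in Anxa2 and 32 bases before it in Anxa10, and was absent from this window in Anxa5. Of all 32851 mouse windows of this length 12.4% held it, and 3 of the 10 annexin windows did. TGANTCA was present in Anxa2 (95 bases before the start) and in Anxa10 (2 matches, the nearer one 16 bases before it), against 6.75% of all windows. GGGCGG was found 3 times in Anxa2 and lay in 4 of the 10 annexin windows, against 32.7% of all, and CCAAT lay in 0 of the 10, against 33.8%. The 250 bases were 46% G and C in Anxa1, 62.4% in Anxa2, 58.8% in Anxa5 and 33.6% in Anxa10, with a median of 52.4% over all windows. The window of Anxa10, the member under the array median, was thus the poorest in G and C of the 10 and held a TATA box and AP-1 letters, as that of Anxa2 did. Windows for 8 of the 10 members were in the table, with a second start for Anxa4 and for Anxa7. Anxa3 and Anxa6 were not among them. The windows of Anxa7 overlap, so 1 GGGCGG site lies in both and was counted in 2 of the 4 windows with a match. A match of letters is a description and not a binding site.

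Signals below are MAS5 intensities on a linear scale, given for replicates 1, 2 and 3 in that order and as mean ± SD (n = 3 arrays). The median signal of an array served as its floor, with values of 689, 685 and 734 for the MOE430A arrays and of 849, 917 and 907 for those of MOE430B. A probe set counted as above the floor when it exceeded it on all 3 arrays of its type. As a measure of background, the brightest of the control probe sets against bacterial tryptophan genes read 614, 757 and 786 on MOE430A, and 1989, 2348 and 2229 on MOE430B. Probe sets differ in how well they hybridize, so a brighter probe set does not show a more abundant transcript, and no order of transcript levels among annexins can be given. Where probe sets are chosen or called dim or bright below, this describes their signal alone. The fibroblast identity in the labels was checked with 11 markers, of which 11 lay above the floor, among them the intermediate filament gene Vim (164029, 130581 and 153518), the collagen gene Col1a2 (119800, 147295 and 169211) and the matrix gene Sparc (103001, 103466 and 122123). None of 4 pluripotency markers did. Of all 18193 genes, 54.7% lay above the floor, the share to set beside these and the following counts. Of the marker lists of cells that could be mixed in, 3 of 6 macrophage genes lay above it. These were Lyz2 (2279, 2443 and 1367), Csf1r (1945, 1694 and 1940) and Cd14 (801, 1392 and 970). Adgre1 (639, 635 and 682) and the pan-leukocyte gene Ptprc (56.9, 29.9 and 181) lay under it on all 3 arrays, while Cd68 (731, 781 and 707) lay above it on 2 of 3. Of 6 epithelial genes 2 did, the keratin gene Krt8 (1701, 1753 and 1052, with its other 2 probe sets under the floor) and Epcam, and Krt18 (847, 714 and 657) did on 2 of 3 arrays. Epcam did so by a MOE430B probe set whose probes can match other transcripts (17127, 36210 and 43842), while its MOE430A probe set read 37.0, 80.5 and 68.8, and Cdh1 read 59.1, 76.8 and 14.7. Of 4 endothelial genes 1 did, Kdr (1272, 1312 and 1636), and Pecam1 and Cdh5 did not. In bulk RNA, fewer cells of a type and less RNA per cell cannot be told apart.

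DR4 fibroblasts carried signal for nearly the whole measured family. Of the 9 annexin genes with a probe set of their own, 8 were above the floor by at least 1 probe set, and Anxa10 was not, beside 54.7% of all 18193 genes. By probe sets, 12 of 18 were above the floor on MOE430A, beside 42.4% of all, and 2 of 3 on MOE430B, beside 37.2%. Anxa9 (88.5, 87.0 and 283) and Anxa13 (265, 407 and 414), the annexins outside the listed members, lay under the floor on all 3 arrays.

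**Figure D1:**
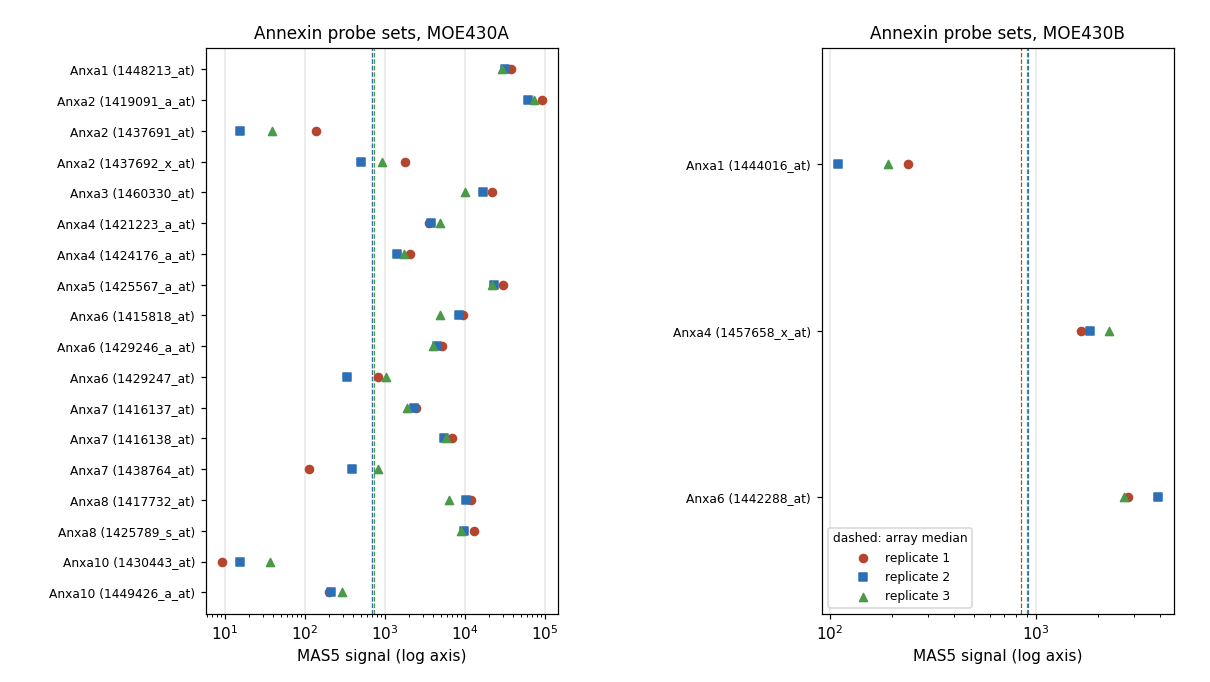
MAS5 signal (log axis) of each of the 18 MOE430A and 3 MOE430B annexin probe sets, with 1 point per replicate and a dashed line at each array's median. The probe set with the highest signal of each of Anxa1, Anxa2, Anxa3, Anxa5, Anxa7 and Anxa8 stands more than 8 times above the median on every MOE430A array, and both Anxa10 probe sets stand under it.

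The annexins that pair with S100 proteins were first. Anxa1, a glucocorticoid-induced protein and a ligand of formyl peptide receptors, read 37270, 32007 and 29260 (32846 ± 4070) on its MOE430A probe set, 39.9 to 54.1 times the floor of the array. Replicate 1 was the highest and replicate 3 the lowest, 1.27-fold apart. A second Anxa1 probe set, on MOE430B, read 239, 109 and 192 and lay under the floor on all 3 arrays.

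Anxa2, which forms a complex with S100a10 at the inner face of the plasma membrane, read 91223, 61660 and 72886 (75256 ± 14923), 90.0 to 132 times the floor. Replicate 1 was again the highest, while replicate 2 was the lowest, 1.48-fold below it. The other Anxa2 probe sets were far dimmer. 1437692_x_at, whose suffix marks probes that can match other transcripts, read 1783, 503 and 910, above the floor in replicates 1 and 3 and under it in replicate 2. 1437691_at read 140, 15.4 and 38.8 and was under the floor on all 3 arrays. All 3 Anxa2 probe sets were highest in replicate 1 and lowest in replicate 2.

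Of the calcium and phosphatidylserine binders, Anxa5, the protein used to stain dying cells, read 29575, 22954 and 21905 (24812 ± 4159) on its single probe set, 29.8 to 42.9 times the floor. Replicate 1 stood apart from the other arrays, which were close to each other. Anxa4, a small annexin best known from epithelia, was above the floor on all 3 of its probe sets. On MOE430A 1421223_a_at read 3605, 3830 and 4956 (4131 ± 724), highest in replicate 3, and 1424176_a_at read 2068, 1421 and 1724 (1738 ± 324), highest in replicate 1. The probe sets of Anxa4 thus disagreed on which replicate was highest. On MOE430B 1457658_x_at read 1661, 1827 and 2265 (1918 ± 312), with its order of replicates that of 1421223_a_at, and lay under the highest tryptophan control in replicates 1 and 2.

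Anxa6, which has a doubled core and is found on endosomes and at the plasma membrane, had 4 probe sets. 1415818_at read 9384, 8466 and 4957 (7602 ± 2337), so replicate 3 lay well under the other arrays, 1.89-fold below the highest. 1429246_a_at read 5179, 4495 and 4050 (4575 ± 569) in the same order with a smaller fall, 1.28-fold. 1429247_at read 817, 333 and 1040 and was under the floor in replicate 2. On MOE430B 1442288_at read 2802, 3896 and 2683 (3127 ± 669), with replicate 2 the highest and above the highest tryptophan control on all 3 arrays.

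Anxa3, whose product binds phospholipid as the others do, showed the widest spread of the bright members. Its single probe set read 21858, 16932 and 10170 (16320 ± 5868), 2.15-fold from the highest array to the lowest. On the scale log2(signal + 16) its SD was 0.56, larger than that of 94.4% of all MOE430A probe sets above the floor. Anxa8, known for an anticoagulant activity, was above the floor on both probe sets. 1417732_at read 12040, 10474 and 6368 (9627 ± 2929), and 1425789_s_at, whose suffix marks probes shared by several transcripts, read 13113, 9668 and 8876 (10553 ± 2253). Both fell in the same order of replicates, 1.89-fold and 1.48-fold from the highest array to the lowest.

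Anxa7, known as synexin for its fusion of chromaffin granules, had 3 probe sets. 1416138_at read 6855, 5494 and 5878 (6076 ± 702), with the smallest log2 SD of the family above the floor, 0.16, and 1416137_at read 2468, 2292 and 1889 (2216 ± 297). 1438764_at read 113, 391 and 834, above the floor in replicate 3 alone and in the reverse order of replicates. Anxa10, an annexin of the stomach lining, read 9.17, 15.5 and 37.0 on 1430443_at and 201, 214 and 294 on 1449426_a_at. The highest of these 6 values, in replicate 3, was 0.40 times the floor.

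In 4 genes, Anxa1, Anxa2, Anxa6 and Anxa7, some probe sets were above the floor and others were not. Of the 7 annexin probe sets not above it, 4 belonged to these genes on MOE430A, 1 to Anxa1 on MOE430B and 2 to Anxa10. For these genes the call thus depended on which probe set was read.

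The question next was how the annexins varied between these replicates. Above the floor on MOE430A, the 12 annexin probe sets had a median log2 SD of 0.26 (range 0.16 to 0.56) and a median coefficient of variation of 18.1%, beside 0.24 and 16.5% for all 9600 probe sets above the floor. On MOE430B the 2 annexin probe sets had log2 SDs of 0.23 and 0.29, beside a median of 0.28 over all 8384. Of the 12, 5 lay under the median SD of all probe sets, and the widest were Anxa3 (0.56), Anxa6 on 1415818_at (0.49) and Anxa8 on 1417732_at (0.48). Those 3 shared 1 feature, a low replicate 3, whose MOE430A array was scanned on another day and processed on another fluidics station than those of replicates 1 and 2. The part of scan day and station in that difference was not tested.

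The order of the replicates ran alike through most of the family. Replicate 1 was above both other arrays in 11 of the 12 MOE430A annexin probe sets above the floor, beside 33.3% of all 9600 such probe sets. The exception was Anxa4 on 1421223_a_at. Replicate 3 was below both other arrays in 8 of the 12, beside 33.8%, and replicate 2 in 3 of the 12, beside 30.6%. Replicate 2 was above both others in 0 of the 12, beside 30.9%, and replicate 3 in 1, beside 35.8%. The 8 with replicate 3 lowest were the above-floor probe sets of Anxa1, Anxa3, Anxa5, Anxa6 and Anxa8 and 1416137_at of Anxa7. On MOE430B replicate 1 was above both others in 0 of 2, beside 36.4% of all. There Anxa4 was lowest in replicate 1 (33.6% of all) and highest in replicate 3 (31.8%), and Anxa6 was highest in replicate 2 (31.8%) and lowest in replicate 3 (34.5%). The count of 11 of 12 also stood after quantile normalization, where the share over all probe sets was 35.6%. Over all MOE430A annexin probe sets, dim ones included, it was 13 of 18, and the others were highest in replicate 3. Counted by the probe set with the highest mean signal of each gene it was 7 of 9, with Anxa4 and Anxa10 as the exceptions. No share over all probe sets or genes counted in these ways is given here. Probe sets of 1 gene share their transcript and all share the same 3 RNA samples, so these counts describe 3 samples and are no test.

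**Figure D2:**
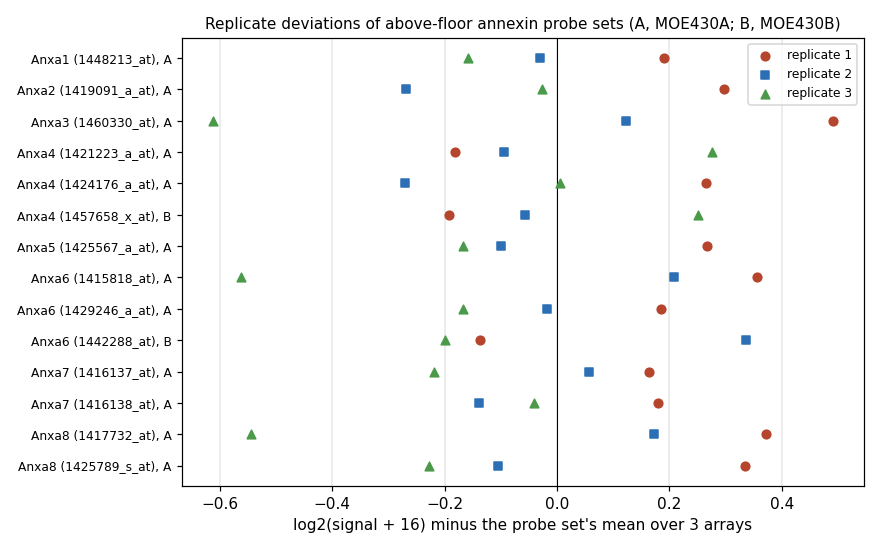
Deviation of log2(signal + 16) from the probe set's own mean, with 1 point per replicate, for the 14 annexin probe sets above the floor (A, MOE430A; B, MOE430B). Replicate 1 is the rightmost point in 11 of the 12 MOE430A probe sets, and replicate 3 lies far to the left for Anxa3, Anxa6 on 1415818_at and Anxa8 on 1417732_at.

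Cell number and RNA concentration set replicate 1 apart from the others in the labels, so it was compared with the mean of replicates 2 and 3. No annexin probe set passed the threshold of an adjusted p of 0.05 in limma, with 0 of 13 called on MOE430A and 0 of 2 on MOE430B in either direction. Over the whole tables limma called 0.705% of 11066 MOE430A probe sets (0.217% higher and 0.488% lower in replicate 1) and 0% of 10594 on MOE430B. At an unadjusted p below 0.05 there was 1 annexin probe set, beside 8.13% of all on MOE430A and 7.24% on MOE430B. With 1 array against 2, the test has 1 residual degree of freedom of its own and assumes that the lone array varies as the others do. An exact permutation over 3 samples could not go below p = 0.333. Tested on simulated data, the fit recovered almost no changes on MOE430B, so the absence of calls there says nothing about its annexins. On MOE430A it missed most of the smallest changes in that test, with a share of false calls above the threshold. Even those changes were larger than the difference of any annexin probe set above the floor. The share of false calls on the real arrays was not tested.

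The 1 annexin probe set with an unadjusted p below 0.05 was the dim 1437692_x_at of Anxa2, with a log2 difference of 1.38 (SE 0.39, 95% interval 0.57 to 2.18) and an adjusted p of 0.128 in limma. Its value in replicate 2 was under the floor, and over the alternative settings its adjusted p ran from 0.105 to 0.942. The bright Anxa2 probe set differed by 0.44 (SE 0.37, interval -0.31 to 1.20, adjusted p = 0.877 in limma). Anxa3 differed by 0.74 (SE 0.39, interval -0.06 to 1.53), with an adjusted p of 0.657 in limma. This value rested on the array that replicate 1 was set against, at 0.37 against replicate 2 alone and 1.10 against replicate 3 alone. Anxa8 differed by 0.56 and 0.50 on its probe sets, and the former was 0.20 against replicate 2 and 0.92 against replicate 3. Anxa6 on 1415818_at differed by 0.53, with 0.15 against replicate 2 and 0.92 against replicate 3. Other probe sets differed more from replicate 2 than from replicate 3. Those values were 0.56 and 0.32 for the bright Anxa2 probe set, 1.79 and 0.96 for 1437692_x_at, 0.54 and 0.26 for Anxa4 on 1424176_a_at, and 0.32 and 0.22 for Anxa7 on 1416138_at. Replicates 1 and 2 shared a scan day and fluidics station on MOE430A, so the values against replicate 2 are also those within a day. On MOE430B all arrays were scanned on 1 day, but replicate 1 was processed on another fluidics station than replicates 2 and 3, so the comparison of replicate 1 and the change of station cannot be told apart on that type.

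Differences of the other members were smaller than those of Anxa3. Anxa5 differed by 0.40 (interval -0.35 to 1.15), and Anxa1 by 0.28 (interval -0.47 to 1.04), both higher in replicate 1. Anxa7 differed by 0.24 and 0.27 on its probe sets, and Anxa6 on 1429246_a_at by 0.28. For Anxa4 the MOE430A values were -0.27 and 0.40, of opposite sign, and that on MOE430B was -0.29. Anxa6 on MOE430B differed by -0.21, which turned to 0.06 against replicate 3 alone. The median over the 13 MOE430A annexin probe sets in the fit was 0.40, beside -0.01 over all 11066, and 12 of the 13 were above 0, beside 5409 of all. Over the 2 on MOE430B it was -0.25, beside 0.03 over all 10594.

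**Figure D3:**
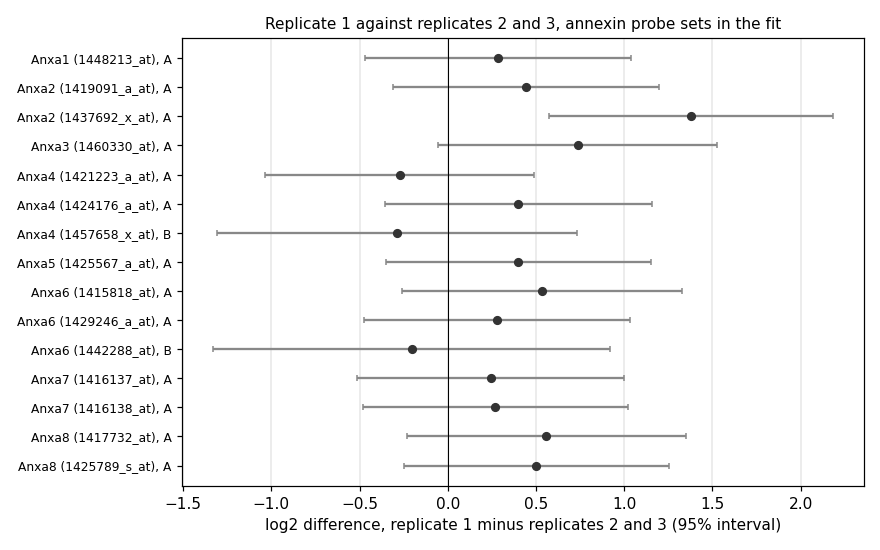
Log2 difference of replicate 1 minus the mean of replicates 2 and 3 for the 15 annexin probe sets in the fits, with 95% intervals from limma (A, MOE430A; B, MOE430B). The intervals of all but 1437692_x_at of Anxa2 include 0, and none of the 15 passed after adjustment over all probe sets.

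Other measures moved with the replicates and are given as values. Summed over the 6 epithelial markers, the MOE430A signal was 5025, 4462 and 3079 in replicates 1, 2 and 3, highest in replicate 1 and lowest in replicate 3. The only summed probe set above the floor, for Krt8, was highest in replicate 2 (1701, 1753 and 1052). The lead of replicate 1 thus came from probe sets not above the floor on every array, such as Krt5 (977, 581 and 440). The MOE430B probe set of Epcam, outside this sum, was lowest in replicate 1 (17127, 36210 and 43842). On MOE430A the 6 macrophage markers summed to 8458, 9250 and 8724, and the 4 endothelial markers to 2355, 2647 and 2785. The ratio of the 3′ to the 5′ control probe set of Gapdh was 1.27, 1.16 and 0.85 on MOE430A, highest in replicate 1 and lowest in replicate 3, and that of beta-actin was 1.05, 1.17 and 1.09. The part of these in the annexin differences was not tested. The 11 fibroblast markers summed to 899257, 998743 and 1061588 on MOE430A, lowest in replicate 1. The median log2 difference of their 20 probe sets in the fits was -0.46, with 0 called in either direction.

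Genes that work with annexins were read from lists, each by the probe set of highest mean signal unless others are given, and limma called 0 of their probe sets in either direction. The lists are short, and their counts of genes above the floor stand beside 54.7% of all genes. Of the S100 and EF-hand partners, 5 of 6 were measured and 5 were above the floor. S100a10, the partner of Anxa2, read 17679, 19673 and 15521 and differed by 0.02 (SE 0.37, adjusted p = 0.996 in limma), with 0.22 and -0.27 on its other 2 probe sets. S100a6, which binds several annexins, read 69520, 50699 and 47110, higher in replicate 1 by 0.51 (SE 0.37, adjusted p = 0.824 in limma), and S100a4 read 63841, 63645 and 54743. The summed MOE430A signal of this list was 169268, 152493 and 132749, in the order of replicates seen for Anxa1, Anxa5 and Anxa8.

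Receptors and extracellular partners were mixed. Of the formyl peptide receptors, through which Anxa1 signals, 1 of 3 was measured, Fpr2, and it lay under the floor (524, 364 and 113). In the plasminogen system, which Anxa2 and S100a10 help to assemble, 3 of 4 measured genes were above the floor: the activator gene Plat (5844, 4320 and 4809), the urokinase receptor gene Plaur (2987, 2523 and 2529) and the urokinase gene Plau (803, 740 and 908). The Plau values lay near the floor, under the highest tryptophan control in replicate 2. Its other probe set (796, 548 and 484) was above the floor in replicate 1 alone. Plasminogen itself, Plg, was under the floor (402, 638 and 620).

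Among genes for phosphatidylserine exposure and uptake, 6 of 8 were above the floor. The bridging protein gene Gas6 read 12049, 22319 and 14366 on MOE430A, and another bridging protein gene, Mfge8, read 14877, 10513 and 10747. The scramblase gene Ano6 read 17840, 10825 and 18935 on a MOE430B probe set with a log2 difference of 0.32, and 11994, 12247 and 14385 on another with -0.15. For membrane repair and vesicle partners it was also 6 of 8. Ahnak, a giant scaffold held at the membrane by Anxa2 and S100a10, read 11187, 19798 and 21654, lower in replicate 1 by 0.89 on the log2 scale (SE 0.37, adjusted p = 0.447 in limma) while its other 3 probe sets lay under the floor. Chmp4b, of the membrane-cutting ESCRT machinery, read 10124, 12181 and 9828, and the calpain gene Capn2 read 10528, 8594 and 8397. Phospholipase A2 is an enzyme class that annexins were early on studied as inhibitors of. Both measured genes of its cytosolic form were above the floor, Pla2g4a at 3505, 2275 and 3233 and Pla2g4c on MOE430B at 4387, 4317 and 3219. The median log2 differences of the lists pool the probe sets of both array types in the fits. They were 0.02 for the S100 list, 0.30 for the plasminogen list and -0.15 for the phosphatidylserine list. The membrane repair list had 0.03 and the phospholipase list 0.30, from Pla2g4a on MOE430A (0.37) and Pla2g4c on MOE430B (0.23). The annexin medians, kept apart by type, were 0.40 on MOE430A and -0.25 on MOE430B, so the list medians are not directly comparable with either.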

How the data were processed

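Total RNA of 3 DR4 replicates was measured on MOE430A and MOE430B arrays, 1 table per array type. The authors deposited signal intensities on a linear scale, made with MAS5 per the submitters' processing notes, whose settings are not stated there. Trimmed by 2% at each end, the mean signal came to 1501 on every MOE430A array and 1500.2 on every MOE430B array. Array types were kept apart in every test. Scan day and station came from the instrument records, which hold no expression values. Control probe sets (64 per type) were left out of tests.

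Probe sets were named from the platform annotation held by GEO, whose symbols were updated through RefSeq gene identifiers. A probe set with 1 symbol was named (20380 on MOE430A and 14661 on MOE430B), one with several (691 and 245) was not, and 1555 and 7605 are unnamed here. Promoter windows are from RefSeq, GRCm38.p6.

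Replicate 1 was compared with replicates 2 and 3 by limma 3.58.1 (R 4.3.3; lmFit, eBayes) on log2(signal + 16), over probe sets whose mean log2 signal exceeded the mean log2 floor, with Benjamini-Hochberg adjustment over each table. Fold changes on that scale understate the change of dim genes. Tested on simulated data, the fit recovered large changes on MOE430A but missed most of the smallest, with a share of false calls above the threshold, and it recovered almost none on MOE430B. The number of arrays limits the precision. Members and lists were chosen with earlier results of these data known. All members are named with all probe sets of 1 symbol, and from each list the 3 genes with the highest mean signal above the floor. Cdh1, Krt18, Krt5, Ptprc, Cd68, Adgre1, Pecam1, Cdh5, Fpr2 and Plg were chosen after their values were seen. Genes of like pattern were not sought, because 3 arrays of 1 condition give no pattern to rank by.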

Additional observations from a re-analysis of the deposited data

How the results depend on the processing

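The number of annexin genes above the floor was 8 in every setting run except a fixed signal of 200 as the floor, where it was 9. On MOE430A 11 to 15 probe sets were above it over all floors and left-out replicates, and on MOE430B 2, or 1 with the 75th percentile or the highest tryptophan control as the floor. No annexin probe set was called under any setting of the fit, and the 87 values of annexin differences under another pseudocount, normalization, filter or eBayes setting kept their direction. A filter or eBayes setting cannot change a difference, so only the values under another pseudocount or normalization could have turned. Of the 30 values that leave out replicate 2 or 3, 1 changed direction. Without replicate 2 that of Anxa6 on MOE430B turned from -0.21 to 0.0626, and it was -0.47 without replicate 3. The count of calls over all MOE430A probe sets, 78, became 0 with quantile normalization, 0 without a filter on low signals and 164 with an eBayes trend. On MOE430B it became 8 with a filter at the 75th percentile. The causes were not tested. The count of annexin probe sets highest in replicate 1 on MOE430A, 11, became 7 with 1 probe set per gene, where fewer were counted; its alternatives were chosen after seeing the data. No paired analysis was possible because the groups that share replicate numbers are array types, which measure the same replicates with mostly different probe sets, so no test set one type against the other. Probe sets near the floor are limited by signal over background, and 3 arrays limit all intervals.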

Other observations

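Both array types carry 100 probe sets in common, none of them for an annexin, which show how far a replicate's deviation on MOE430A recurs on MOE430B. Replicate 1's deviation from the probe set's mean on the log2 scale had the same sign on both types in 66% of the 100, with Pearson's r of 0.55 across probe sets. For replicate 2 these were 61% and 0.43, and for replicate 3 70% and 0.38. Probe sets are not independent, and the points share arrays and their scaling, so these values describe the arrays. The median deviation of replicate 1 over the 100 was -0.02 on MOE430A and 0.14 on MOE430B. Of Anxa1, Anxa4 and Anxa6, the annexins with probe sets on both types, Anxa4 alone had replicates in the same order on both, lowest in replicate 1 and highest in replicate 3 on 1421223_a_at and 1457658_x_at, while its other MOE430A probe set did not share that order.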
